A study of Homo sapiens with 12 samples.

Results

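The values described here belong to 10 genes of the 60651 in the deposited count table: the secreted Frizzled-related proteins SFRP1, SFRP2, SFRP4 and SFRP5, the Wnt inhibitory factor WIF1, the Dickkopf genes DKK1 and DKK3, the R-spondin RSPO3, the feedback gene AXIN2, and the transcription factor SOX17. The members were taken by symbol, and every one of the 10 symbols was found once. RNA sequencing covered 12 libraries of HUCCT1 and EGI-1, which are established human cholangiocarcinoma cell lines labelled as wild type. HUCCT1 cells, grown in RPMI1640, received vehicle (DMSO) or 1000 nM decitabine. EGI-1 cells, grown in DMEM, received vehicle (DMSO), 500 nM decitabine, 200 nM talazoparib or both agents (the combination), and all cells were harvested at 72 h with 2 libraries in each of the 6 groups. Decitabine is a nucleoside that is built into DNA and depletes DNA methyltransferases, and talazoparib inhibits the DNA repair enzyme PARP. Library names of the talazoparib arm hold a 50, whereas its labels state 200 nM. Line, medium, decitabine dose and a code in the library names changed together between HUCCT1 and EGI-1 and cannot be told apart.

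Wnt ligands bind Frizzled and LRP receptors, which stops the destruction complex from degrading β-catenin and lets β-catenin activate target genes with TCF/LEF factors. Secreted Frizzled-related proteins and WIF1 bind the ligands outside the cell, DKK1 blocks the LRP co-receptor, and R-spondins raise receptor levels by drawing off the ligases RNF43 and ZNRF3. AXIN2 is a scaffold of the destruction complex and itself a β-catenin target, and SOX17 is an endoderm and endothelial factor that can repress β-catenin activity. Several of these antagonists and SOX17 are known for dense promoter methylation in cancers of the gut and bile duct.

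Total counts lay between 23139065 and 33181930 in the 8 EGI-1 libraries and between 32519985 and 34965627 in the 4 HUCCT1 libraries. All 6 biliary epithelium markers used (KRT7, KRT19, KRT8, KRT18, EPCAM and SOX9) were above 3 counts in every library, and 4 hepatocyte markers together reached at most 0.210 CPM (counts-per-million, scaled by trimmed-mean factors). One library stood apart. In EGI-1 combination replicate 2 the leukocyte gene PTPRC had 381 counts and the T cell gene CD3E had 148, whereas the other 7 EGI-1 libraries had 1 to 7 and 0 to 4. All 4 leukocyte markers summed to 684 counts (23.6 CPM) there, against 2.71 to 5.06 CPM in the others. PTPRC and CD3E made up most of that sum. The remainder, from CD14 and LYZ, lay near the sums of the other libraries. Changes under the combination are therefore given with and without that library.

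Counts of 3 or fewer in every library of a group were read as at the floor, which in CPM lay between 0.0845 and 0.129. In vehicle-treated HUCCT1, 4 of the 10 genes were at the floor (SFRP2, SFRP4, WIF1 and RSPO3), and after decitabine 2 were (SFRP4 and RSPO3). In each of the 4 EGI-1 groups, 4 genes were at the floor (SFRP1, SFRP2, WIF1 and SOX17). No fold is given between groups that both lie there.

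**Figure D1:**
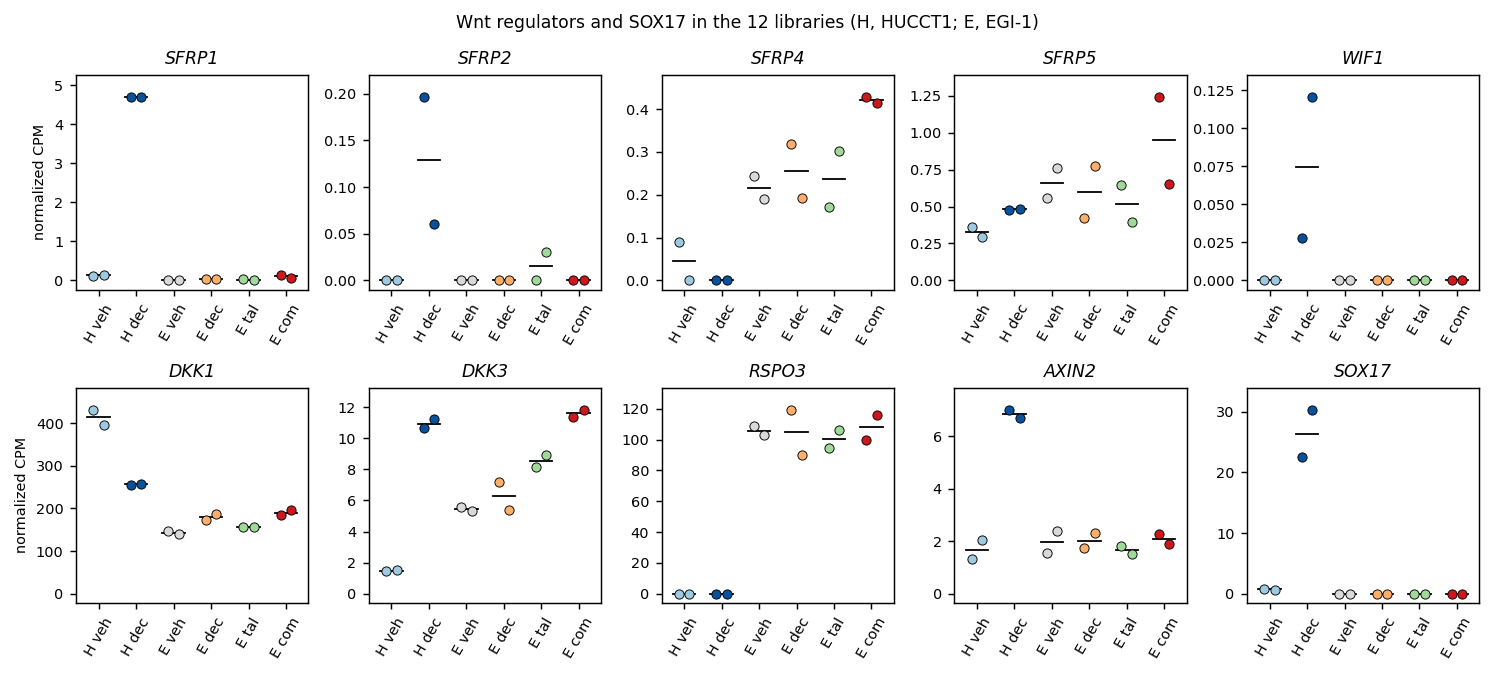
Normalized CPM (y axis, linear, with its own range in each panel) of the 10 genes in the 12 libraries; points are libraries, bars are group means of 2 libraries, and x labels give the line (H, HUCCT1; E, EGI-1) and the arm (veh, vehicle; dec, decitabine; tal, talazoparib; com, combination). SFRP1, SOX17 and AXIN2 were highest in the HUCCT1 decitabine libraries, at 4.71, 26.4 and 6.86 CPM on average, and RSPO3 had counts in EGI-1 libraries only.

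The first comparison asked how the untreated lines differ in these genes. DKK1 was the most abundant member in both. On the RPKM scale, which divides CPM by the summed length of annotated exons, its level in vehicle-treated HUCCT1 was 186 ± 11.3 (SD, n = 2), and the next members were AXIN2 at 0.324 ± 0.0989, SOX17 at 0.292 ± 0.0203, SFRP5 at 0.174 ± 0.0238, DKK3 at 0.123 ± 0.00432 and SFRP1 at 0.0283 ± 0.00423 RPKM. The AXIN2 and SOX17 libraries overlapped, and the other neighbours in that order did not. In vehicle-treated EGI-1, DKK1 stood at 64.5 ± 1.96 RPKM, followed by RSPO3 at 21.4 ± 0.907, DKK3 at 0.457 ± 0.0140, AXIN2 at 0.380 ± 0.113, SFRP5 at 0.348 ± 0.0764 and SFRP4 at 0.0616 ± 0.0107 RPKM. The libraries of AXIN2 overlapped those of DKK3 and of SFRP5, whereas DKK3 lay above SFRP5 in both. Lengths differ widely, since the annotated exons of DKK3 sum to 11958 bp and those of DKK1 to 2221 bp, and the transcripts in use are not known.

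Of the 10 genes, 8 had enough counts to be tested between the vehicle groups, and 5 passed at an adjusted p under 0.05, where 55.8% of all 25096 genes tested passed. RSPO3 had 3147 and 2710 counts in the EGI-1 vehicle libraries and 0 and 0 in the HUCCT1 vehicle libraries, so its level was at least 1171-fold higher in EGI-1 against a floor of 3 counts per library. SOX17 went the other way, with 24 and 22 counts in HUCCT1 and 0 in every EGI-1 library, at least 5.48-fold higher in HUCCT1. SFRP1 also passed, but with 4 and 5 counts in HUCCT1 vehicle and 0 and 0 in EGI-1 vehicle it supports no useful fold. It reached the test through the HUCCT1 decitabine libraries, which are not part of this comparison. RSPO3 reached the test through EGI-1 and SOX17 through HUCCT1. None of these genes could have passed in the other direction. DKK1 was 3.37-fold higher in HUCCT1 (95% interval 3.03 to 3.75, adjusted p = 1.4e-14). DKK3 was lower there, with a log2 fold change of -1.66 (SE 0.182, adjusted p = 7.7e-08). AXIN2 did not pass, with a log2 fold change of 0.00 (95% interval -0.55 to 0.56), SFRP5 had -0.77 (adjusted p = 0.19), and SFRP4 had 3 and 0 counts in HUCCT1 against 7 and 5 in EGI-1.

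RefSeq promoter windows on GRCh38.p14 were held for 6 of the members (SFRP2, RSPO3, SFRP4, DKK1, SFRP5 and WIF1). CpG dinucleotides, the letters CG and the sites that DNA methyltransferases modify, were counted in the 250 bases upstream of each start. WIF1 had 27, SFRP5 21, DKK1 18, SFRP4 17, SFRP2 11 and RSPO3 8, and the median over 35116 promoters was 11 (quartiles 3 and 23). As many or more CpGs as at WIF1 were found in 17.7% of all promoters, and as many or more as at RSPO3 in 56.3%. DKK1 and RSPO3 are printed here because they passed the test in the most comparisons among the 6, and SFRP2 and WIF1 because they did not pass the filter on low counts in any comparison, each 5′ to 3′ along the gene with CpGs in capitals. They lie at chr10:52314031-52314280 (plus strand, DKK1), chr6:127118421-127118670 (plus strand, RSPO3), chr4:153789084-153789333 (minus strand, SFRP2) and chr12:65121306-65121555 (minus strand, WIF1).
DKK1: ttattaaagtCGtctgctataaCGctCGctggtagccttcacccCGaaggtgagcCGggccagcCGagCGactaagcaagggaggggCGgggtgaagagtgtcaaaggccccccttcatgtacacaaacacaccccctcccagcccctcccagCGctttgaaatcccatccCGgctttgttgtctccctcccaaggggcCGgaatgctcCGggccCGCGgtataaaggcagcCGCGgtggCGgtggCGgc
RSPO3: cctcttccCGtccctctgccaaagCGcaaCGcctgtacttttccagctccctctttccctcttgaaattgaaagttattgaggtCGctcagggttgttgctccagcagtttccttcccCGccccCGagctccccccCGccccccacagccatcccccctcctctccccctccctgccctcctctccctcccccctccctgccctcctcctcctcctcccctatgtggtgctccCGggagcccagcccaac
SFRP2: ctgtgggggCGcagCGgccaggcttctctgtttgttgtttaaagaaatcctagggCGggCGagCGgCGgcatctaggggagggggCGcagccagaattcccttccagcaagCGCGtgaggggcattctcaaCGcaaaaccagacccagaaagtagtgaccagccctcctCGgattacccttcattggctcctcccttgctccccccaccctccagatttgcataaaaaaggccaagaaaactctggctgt
WIF1: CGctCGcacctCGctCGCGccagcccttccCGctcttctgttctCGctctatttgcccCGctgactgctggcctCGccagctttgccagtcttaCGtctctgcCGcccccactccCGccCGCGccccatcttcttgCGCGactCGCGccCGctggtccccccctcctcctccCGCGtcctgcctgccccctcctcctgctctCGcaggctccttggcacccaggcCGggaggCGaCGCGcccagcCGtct
CTTTG, the core letters bound by TCF/LEF factors, was also searched on both strands. It occurred 2 times forward and 1 time in reverse at DKK1, 1 time in reverse at RSPO3 and 1 time forward at WIF1, and was not found in these windows of SFRP2, SFRP4 and SFRP5. Of all promoters of the same length, 42.1% held it at least once. Methylation itself was not measured in these files.

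Decitabine in HUCCT1 was compared with vehicle to see which of the genes change after this treatment. SFRP1, SOX17, DKK3 and AXIN2 rose and DKK1 fell. Of the 10 genes, 6 had enough counts to be tested and 5 passed, where 33.5% of all 22479 genes tested passed. By direction, 4 were higher against 19.6% of all genes and 1 was lower against 13.9%. SFRP1 reached the test through its decitabine libraries, since its vehicle counts were under 10.

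SFRP1 (chr8:41261962-41309473, minus strand) binds Wnt ligands before they reach Frizzled. It had 4 and 5 counts in the HUCCT1 vehicle libraries, and after decitabine both libraries had 156 counts or more (4.70 and 4.71 CPM). The groups did not overlap. The fitted change was 34.2-fold (95% interval 20.7 to 56.2, adjusted p = 1.4e-11), and the mean level went from 0.134 ± 0.0200 to 4.71 ± 0.00487 CPM (SD, n = 2). Even so, its decitabine level of 0.994 RPKM was far under the 116 RPKM of DKK1 in the same libraries.

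SFRP2 and SFRP4 code for relatives of SFRP1. SFRP2 had 0 and 0 counts in HUCCT1 vehicle and 7 and 2 after decitabine. Tested without the filter on low counts, its adjusted p was 0.085. SFRP4 had 3 and 0 counts and then 0 and 0. SFRP5, another ligand-binding relative, had 12 and 10 counts in vehicle and 17 and 16 after decitabine, a change that did not pass (log2 fold change 0.55, 95% interval -0.54 to 1.63, adjusted p = 0.47). WIF1 had 0 and 0 counts and then 1 and 4.
Of the 5 ligand-binding antagonists, only SFRP1 and SFRP5 passed the filter on low counts, and SFRP1 did so through its decitabine libraries. SFRP1 passed the test. The other 4 remained at 17 counts or fewer in every HUCCT1 library.

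SOX17 (chr8:54457935-54460892, plus strand) had 24 and 22 counts in HUCCT1 vehicle and 799 and 1004 after decitabine, without overlap. It rose 38.3-fold (95% interval 28.4 to 51.6, adjusted p = 2.6e-16), from 0.686 ± 0.0476 to 26.4 ± 5.52 CPM. All 4 endothelium markers (PECAM1, CDH5, VWF and KDR) were also higher in these libraries, with CDH5 going from 11 and 6 counts to 269 and 226 and the summed marker level from between 3.80 and 4.98 to between 23.3 and 24.2 CPM. The 6 biliary epithelium markers together went from between 13167 and 14590 to between 7974 and 9141 CPM, and 4 of them were lower. Of the 5 fibroblast markers, 2 were above 3 counts in the vehicle libraries and 4 after decitabine, and their sum went from between 33.2 and 33.6 to between 149.6 and 174 CPM. COL1A1 (805 and 896 counts, then 5089 and 5611) and COL1A2 (1 and 1, then 60 and 46) were higher, LUM was lower, DCN had 0 and 0 and then 12 and 7 counts, and COL3A1 never exceeded 2. The 4 leukocyte markers summed to between 2.61 and 2.67 and then to between 4.05 and 4.26 CPM, with CD3E higher (0 and 1 counts, then 17 and 23) and PTPRC at 3 or 4 counts throughout. CDH5, COL1A2, CD3E and KDR, the last without counts in HUCCT1 vehicle replicate 1, had vehicle counts too low to reach the test alone. They reached it through their decitabine libraries and could hardly count as anything but higher. Of all genes tested, 19.6% were higher and 13.9% lower. The part of these marker shifts in the SOX17 result was not tested. In EGI-1 vehicle, another line in another medium, the endothelium markers summed to between 20.9 and 22.4 CPM. CDH5 had 426 and 418 counts there and SOX17 had none. HUCCT1 is an established cell line. In its bulk RNA, a change in every cell and a change in some of the cells cannot be told apart.

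DKK1 (chr10:52314281-52318042, plus strand) codes for a secreted protein that binds the LRP co-receptor. It fell in HUCCT1, from 14381 and 13348 counts to 9077 and 8560. The groups did not overlap, and the log2 fold change was -0.69 (95% interval -0.90 to -0.47, adjusted p = 1.2e-05). DKK1 nevertheless stayed the most abundant of the 10 genes, at 257 ± 1.99 CPM after decitabine. The antisense gene PRKG1-AS1 on the other strand had 89 to 112 counts in HUCCT1.

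DKK3 (chr11:11956207-12009769, minus strand), a divergent Dickkopf gene whose effect on Wnt signaling depends on the cell, had 48 and 51 counts in vehicle and 378 and 373 after decitabine. It rose 7.40-fold (95% interval 5.60 to 9.78, adjusted p = 1.0e-11). Reads on USP47, which overlaps it on the other strand, numbered 1208 to 1561 in HUCCT1 and did not separate the groups. Without a stated strand setting, reads of the overlapping ends cannot be assigned with certainty.

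AXIN2 (chr17:65528563-65561648, minus strand) had 44 and 69 counts in vehicle and 249 and 222 after decitabine. It rose 4.07-fold (95% interval 2.95 to 5.60, adjusted p = 8.7e-08), and the groups did not overlap. A protein-coding gene without a symbol is annotated over it on the same strand, so shared reads are possible. RSPO3, the R-spondin, had 0 counts in all 4 HUCCT1 libraries, which at a floor of 3 counts allows at most 0.0906 CPM.

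**Figure D2:**
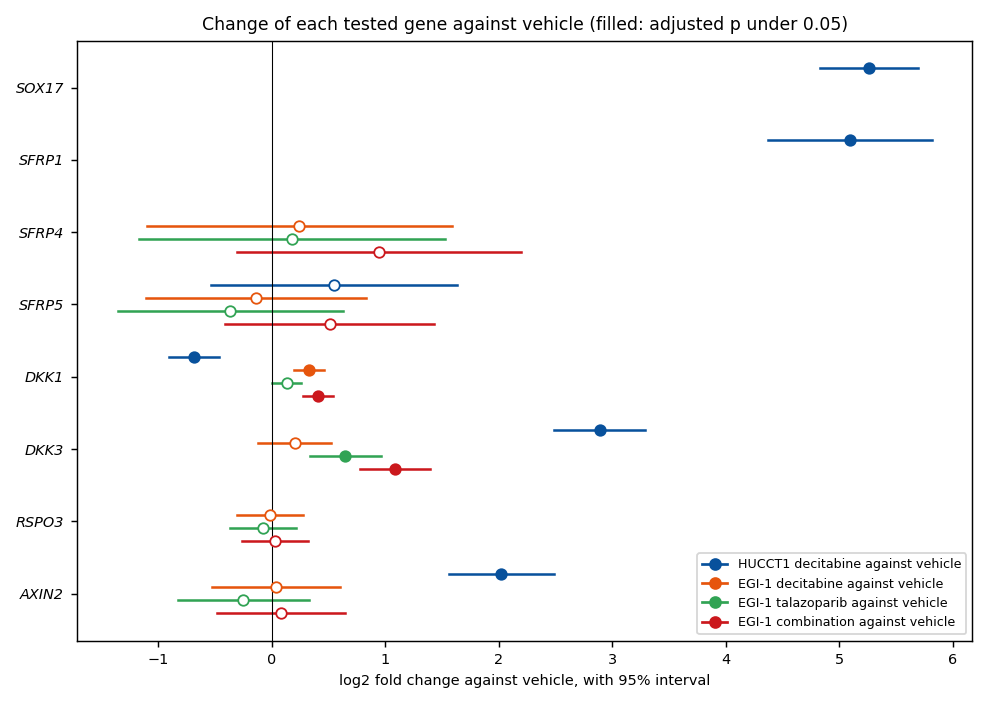
Log2 fold change against vehicle (x axis) with its 95% interval (lines) for the genes with enough counts to test in HUCCT1 decitabine and in the 3 EGI-1 treatment groups; filled points passed at an adjusted p under 0.05 and open points did not. In HUCCT1, SOX17 and SFRP1 lay at 5.26 and 5.09 and DKK1 at -0.69, while in EGI-1 the points that passed were those of DKK1 and DKK3, between 0.33 and 1.09.

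Decitabine in EGI-1 gave a call for DKK1 alone. Of the 10 genes, 6 were tested and 1 passed, where 0.544% of all 22406 genes passed. SFRP1 had 0 and 0 counts in vehicle and 1 and 1 after decitabine, and SOX17, WIF1 and SFRP2 had 0 in all 4 of these libraries. Both groups lie at the floor, so a rise that stayed under about 0.116 CPM was not detectable at this depth. A rise to the levels of HUCCT1 decitabine, 4.71 CPM for SFRP1 and 26.4 CPM for SOX17, would lie above that floor and was not seen. DKK1 had 4224 and 3700 counts (146 and 140 CPM) in vehicle and 4926 and 4811 (174 and 186 CPM) after decitabine, without overlap, a 1.26-fold rise (95% interval 1.15 to 1.37, adjusted p = 0.018). This call did not hold when vehicle replicate 1 (adjusted p = 0.26) or vehicle replicate 2 (adjusted p = 0.50) was left out, nor when the 4 libraries were fitted alone (adjusted p = 0.097).

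The other 5 tested genes did not pass after decitabine in EGI-1. DKK3 stood at 5.58 and 5.34 CPM in vehicle and at 7.16 and 5.37 CPM (203 and 139 counts) after decitabine, and its groups overlapped (log2 fold change 0.20, 95% interval -0.12 to 0.52). RSPO3 had 3147 and 2710 counts and then 3382 and 2334, with a log2 fold change of -0.01 (95% interval -0.30 to 0.28). AXIN2 went from 45 and 63 counts to 49 and 60, with 0.04 (95% interval -0.53 to 0.60). SFRP5 had 16 and 20 counts and then 12 and 20, and SFRP4 had 7 and 5 and then 9 and 5.

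Talazoparib alone raised DKK3 in EGI-1. The gene had 189 and 296 counts (8.14 and 8.95 CPM) against 5.58 and 5.34 CPM in vehicle, without overlap, a 1.57-fold rise (95% interval 1.26 to 1.95, adjusted p = 0.017). Of the 6 genes tested it was the 1 that passed, where 4.12% of all genes passed. Leaving out either vehicle or either talazoparib library ended the call, with adjusted p between 0.053 and 0.21. DKK1 stood at 157 and 157 CPM, and its log2 fold change of 0.13 did not pass (adjusted p = 0.31). RSPO3 had 2198 and 3504 counts (94.6 and 106 CPM) and AXIN2 42 and 50, with log2 fold changes of -0.08 (95% interval -0.37 to 0.21) and -0.25 (95% interval -0.83 to 0.32). SFRP5 had 15 and 13 counts and SFRP4 had 4 and 10.

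The combination in EGI-1 was higher than vehicle for DKK1 and DKK3. Of the 6 genes tested 2 passed, where 18.7% of all genes passed. DKK3 had 265 and 343 counts (11.4 and 11.8 CPM), and in CPM both libraries lay above all other EGI-1 libraries. It rose 2.12-fold (95% interval 1.71 to 2.63, adjusted p = 4.9e-05). DKK1 had 4287 and 5685 counts (184 and 196 CPM) and rose 1.33-fold (95% interval 1.21 to 1.45, adjusted p = 1.5e-04). Without combination replicate 2, the library with leukocyte transcripts, the log2 fold changes were 1.06 for DKK3 (adjusted p = 0.0011) and 0.36 for DKK1 (adjusted p = 0.0053), against 1.09 and 0.41 with it. In that fit 10.7% of all genes passed. Marker sums also differed between the arms. Of the 5 fibroblast markers, 1 was above 3 counts in each EGI-1 library, so the fibroblast sum rests on 1 gene and not on the set. From vehicle to the combination the fibroblast sum went from between 30.01 and 32.02 to between 44.7 and 52.0 CPM, the endothelium sum from between 20.9 and 22.4 to between 30.1 and 31.2, and the biliary epithelium sum from between 8228 and 8242 to between 9047 and 9169. The part of these shifts in the DKK3 and DKK1 results was not tested.

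The remaining members did not pass under the combination. RSPO3 had 2323 and 3367 counts (99.7 and 116 CPM), and its log2 fold change was 0.03 (95% interval -0.26 to 0.32), or -0.09 without combination replicate 2. AXIN2 had 53 and 55 counts, with 0.08 (95% interval -0.49 to 0.65), or 0.21 without that library. SFRP4 had 10 and 12 counts against 7 and 5 in vehicle (log2 fold change 0.94, adjusted p = 0.31, or 0.97 without that library), and EPDR1 on the other strand had 1143 to 1502 counts in EGI-1. SFRP5 had 29 and 19 counts (log2 fold change 0.51, adjusted p = 0.47), and without combination replicate 2, the lower of the 2, its log2 fold change was 0.93 (adjusted p = 0.26). SFRP1 had 3 and 2 counts and SOX17, WIF1 and SFRP2 had 0 and 0.

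Against decitabine alone, the combination was higher for DKK3, 1.85-fold (95% interval 1.49 to 2.28, adjusted p = 8.3e-04), the 1 gene of 6 that passed, where 7.68% of all genes did. Without combination replicate 2 its adjusted p was 0.013. DKK1 did not pass in that comparison (log2 fold change 0.08, 95% interval -0.05 to 0.21, or 0.0337 without that library). Against talazoparib alone, the 1 gene that passed was DKK1, 1.21-fold higher (95% interval 1.11 to 1.32, adjusted p = 0.025), where 1.92% of all genes passed. The call was lost without combination replicate 2 (adjusted p = 0.27), without either talazoparib library (0.15 and 0.20) and without either vehicle library (0.074 and 0.074), while the log2 fold change remained between 0.23 and 0.28 in these fits. DKK3 was 1.35-fold higher (95% interval 1.10 to 1.66) and did not pass (adjusted p = 0.15, or 0.45 without combination replicate 2). All these comparisons with vehicle or with a single agent share libraries.

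Whether the combination departed from the sum of both single effects was tested on the log2 scale. None of the 6 genes passed in edgeR, 0 had an unadjusted p under 0.05, and DESeq2 called 0 as well, where 0.161% of all genes passed. The departure was -0.05 for DKK1 (95% interval -0.23 to 0.13), 0.24 for DKK3 (95% interval -0.20 to 0.68) and 0.12 for RSPO3 (95% interval -0.29 to 0.53). Without combination replicate 2 the departures were -0.0940, 0.21 and 0.00898, none of the 6 genes passed, and 1 had an unadjusted p under 0.05. That gene, named after its value was seen, was SFRP5, at 1.44 (adjusted p = 1.00 in edgeR).

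The decitabine effect was then compared between the lines, which received different doses. Of the 8 genes tested, 3 passed, where 15.9% of all genes passed. The difference in log2 change (HUCCT1 minus EGI-1) was -0.997 for DKK1 (95% interval -1.21 to -0.78, adjusted p = 4.5e-07), since the gene fell in HUCCT1 and rose in EGI-1. That of DKK3 was larger in HUCCT1 by 2.704 (95% interval 2.22 to 3.19, adjusted p = 3.6e-08) and that of AXIN2 by 2.00 (95% interval 1.25 to 2.75, adjusted p = 4.7e-04). SFRP5 did not pass (0.70, 95% interval -0.70 to 2.10). For SFRP1, SOX17, SFRP4 and RSPO3 a line at the floor leaves the difference without an estimate. After decitabine, SOX17 was at least 200.4-fold higher in HUCCT1 than in EGI-1, where it had 0 counts, and SFRP1 had 156 counts or more in both HUCCT1 libraries against 1 and 1 in EGI-1.

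Among the genes with the highest Pearson correlation to SFRP1 in log2 CPM over the 12 libraries were BET1L (r = 0.994) and UCP2 (r = 0.991). UCP2, which codes for a mitochondrial carrier protein, had 477 to 623 counts in HUCCT1 vehicle, 2684 to 2753 after decitabine and 240 to 496 in EGI-1. For SOX17 the highest were LINC01692 (r = 0.999), DCAF12L1 (r = 0.998) and FBN2 (r = 0.998). FBN2, which codes for fibrillin-2, had 102 to 106 counts in HUCCT1 vehicle, 1285 to 1487 after decitabine and 6 to 10 in EGI-1, and LINC01692 never exceeded 13. These genes separate HUCCT1 decitabine from the rest. FBN2, DCAF12L1 and LINC01692 also separate HUCCT1 vehicle from EGI-1. DCAF12L1 had 10 to 11 counts and LINC01692 had 2 in each HUCCT1 vehicle library, against 0 in EGI-1. The correlations over 12 libraries include such differences between lines and arms, and the values are a description.

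Around the 10 genes, 114 further genes of the Wnt pathway and the SOX family were listed in 8 overlapping groups. In HUCCT1 decitabine, 86 of them were tested, 29 were higher and 18 lower (22 and 17 in DESeq2), where 19.6% of all genes tested were higher and 13.9% lower. Those shares of all genes stand beside each HUCCT1 list that follows. Of the 29 higher genes, 10 had fewer than 2 vehicle libraries at 10 counts or more, so they reached the test through their decitabine libraries and could hardly count as anything but higher. They are FRZB, APCDD1, WNT1, WNT5B, WNT11, SOX11, SOX30, FZD9, TCF7L1 and NKD1. TLE2 in turn reached it through its vehicle libraries. Of 8 tested antagonists 4 were higher and none lower, and FRZB and APCDD1 are among the 4. FRZB, a further Frizzled-related antagonist, had 0 and 3 counts in vehicle and 30 and 20 after decitabine, APCDD1 had 0 and 7 and then 14 and 22, and TRABD2A, which cleaves Wnt ligands, rose 1.97-fold (adjusted p = 0.0018). Of 15 tested Wnt ligands 9 were higher and 1 lower (7 and 1 in DESeq2), and 3 of the 9 had such low vehicle counts. WNT5B went from 1 and 3 counts to 221 and 203, WNT1 from 2 and 1 to 42 and 31, and WNT11 from 0 and 8 to 26 and 11. The calls of APCDD1 and WNT11 were lost in DESeq2 (adjusted p = 0.095 and 0.13) and without HUCCT1 vehicle replicate 1 (adjusted p = 0.24 and 0.29), that of APCDD1 also without decitabine replicate 2 (0.26) and that of WNT11 without decitabine replicate 1 (0.42).

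Of 12 other SOX genes tested in HUCCT1, 5 were higher and 1 lower, or 3 and 1 in DESeq2. SOX11 had 0 and 0 counts in vehicle and 14 and 22 after decitabine, SOX30 had 5 and 3 and then 56 and 57, and SOX15 rose 3.93-fold (adjusted p = 7.5e-09). Of 14 tested receptors 2 were higher and 6 lower. FZD9 went from 0 and 4 counts to 50 and 40, FZD5 rose 1.60-fold (adjusted p = 2.9e-05) and FZD7 fell, with a log2 fold change of -0.89 (adjusted p = 1.1e-06).

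Genes that act inside the cell went both ways. Among 16 genes of the destruction complex and β-catenin, 3 were higher and 2 lower (1 and 2 in DESeq2), with log2 fold changes of -0.57 for the β-catenin inhibitor CTNNBIP1, -0.33 for CTNNB1, β-catenin itself, and 0.32 for the ubiquitin ligase subunit BTRC. The CTNNB1 call was lost without vehicle replicate 1 or either decitabine library (adjusted p = 0.23, 0.054 and 0.18). The BTRC call was lost without any 1 of the 4 libraries (0.057 to 0.24), in DESeq2 (0.054) and without the filter on low counts (0.058). Of 10 tested TCF/LEF genes and coregulators 3 were higher and 3 lower, led by TCF7L1 at 2.11, the corepressor TLE2 at -1.68 and TLE1 at 0.93. The TLE2 call was lost in DESeq2 (adjusted p = 0.16) and without any 1 of the 4 libraries. Of 11 tested β-catenin targets other than AXIN2, 4 were higher and 4 lower. NKD1, a feedback inhibitor, had 4 and 3 counts and then 25 and 19, and SP5 had a log2 fold change of -0.97 (adjusted p = 0.0072). Both calls were lost without HUCCT1 decitabine replicate 1 (adjusted p = 0.065 and 0.16). AXIN2 thus rose in a list whose other tested members went in both directions. Of the 3 tested genes among R-spondins, their receptors and ligases, LGR4 was lower, at -0.44.

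In the EGI-1 combination, 80 of the 114 genes were tested, 15 were higher and 10 lower, where 11.1% of all genes were higher and 7.61% lower. Without combination replicate 2, 83 were tested and 10 were higher and 7 lower, where 6.88% and 3.85% of all genes were. The R-spondin receptor LGR6 fell, with a log2 fold change of -1.50 (adjusted p = 7.7e-05), from 206 and 213 counts to 70 and 70. RNF43, the ligase that R-spondins draw off, was at -0.76 (adjusted p = 0.017) and LGR4 at -0.29 (adjusted p = 0.0049). Without combination replicate 2, LGR6 (-1.34) and LGR4 (-0.37) still passed and RNF43 did not (adjusted p = 0.14). The LGR4 call was lost without combination replicate 1 (0.088) or either vehicle library (0.063 and 0.064), and the RNF43 call also without vehicle replicate 1 (0.21). RSPO3, the ligand of these receptors, did not pass in the same comparison. After decitabine alone 1 of the 80 genes passed (SOX9, named after its value was seen), where 0.544% of all genes did, and after talazoparib alone 8 did, 4 higher and 4 lower, where 4.12% of all genes did.

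Of 4 tested antagonists in the EGI-1 combination 3 were higher, TRABD2A by 0.82, IGFBP4 by 0.72 and KREMEN1, a DKK1 co-receptor, by 0.52 on the log2 scale, and without combination replicate 2 these 3 still passed, at 0.82, 0.78 and 0.53. The ligands WNT16 and WNT5B stood at -1.02 and 0.77, and of the receptors FZD7 was higher by 0.55 and PTK7 by 0.25, with LRP5 at -0.37. AMER1 was the 1 gene of 16 that passed in the destruction complex, at -0.46. WNT16, PTK7 and AMER1 no longer passed without combination replicate 2 (adjusted p = 0.24, 0.050 and 0.098), nor without EGI-1 vehicle replicate 1 (adjusted p = 0.091, 0.12 and 0.058). The calls of WNT16 and PTK7 were also lost without vehicle replicate 2 (0.10 and 0.13), and that of PTK7 without combination replicate 1 (0.090). WNT5B, FZD7 and LRP5 still passed without combination replicate 2, at 0.81, 0.62 and -0.33. SOX15 was higher by 0.95 and SOX9 by 0.93, with SOX4 at -0.57, and without that library they passed at 1.10, 0.94 and -0.56.

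LEF1 had 88 and 214 counts in the combination libraries against 46 and 55 in vehicle, and its log2 fold change was 1.62 (adjusted p = 0.0012). The higher value belongs to the library with leukocyte transcripts, and LEF1 is also expressed in T cells. Without that library its log2 fold change was 1.04 (adjusted p = 0.030). TCF7L1 and TCF7L2 were at 0.86 and -0.56, or 0.90 and -0.54 without that library, where both still passed. The TCF7L1 call was lost without vehicle replicate 1 (adjusted p = 0.078). EPHB3, a β-catenin target, was at 0.64 with an adjusted p of 0.020, and this call was lost in DESeq2 (0.051) and without either vehicle library (0.16 and 0.086) or either combination library (0.054 and 0.10). The part of leukocyte RNA in these values was not tested.

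**Figure D3:**
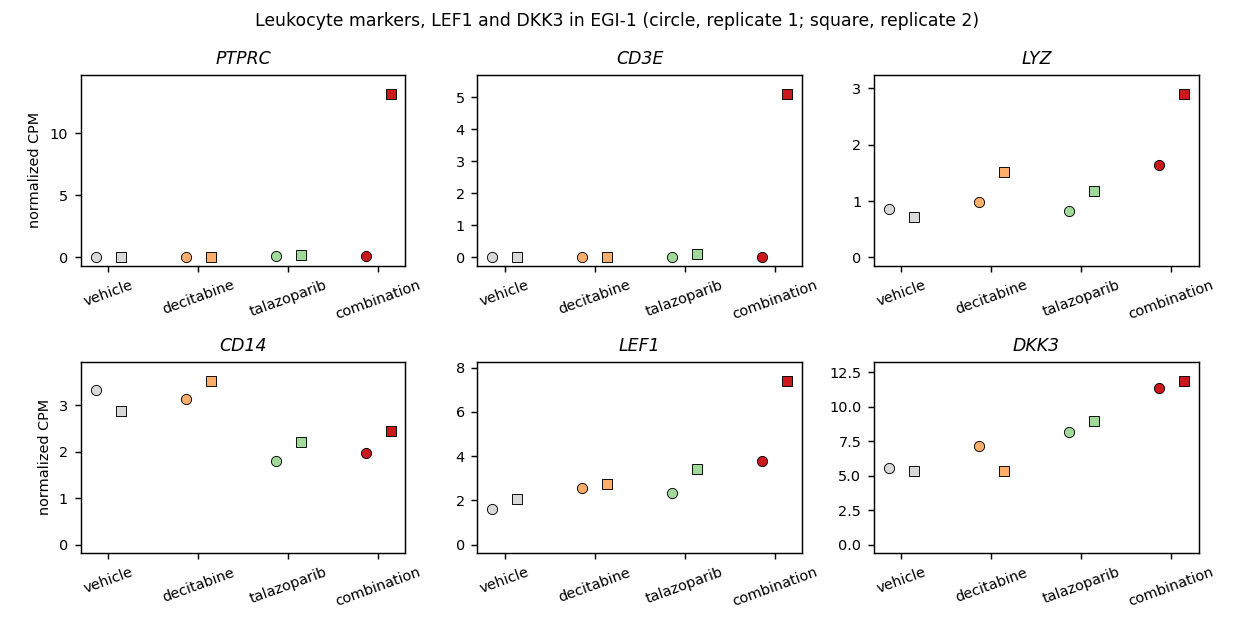
Normalized CPM (y axis, linear from 0, with its own range in each panel) of 4 leukocyte markers, LEF1 and DKK3 in the 8 EGI-1 libraries by arm; circles are replicate 1 and squares replicate 2. PTPRC and CD3E stood at 13.1 and 5.10 CPM in combination replicate 2 and at most at 0.212 and 0.121 elsewhere, LEF1 was 7.38 there and 3.78 in replicate 1, and DKK3 was 11.8 and 11.4.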

How the data were processed

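RNA of 12 libraries was sequenced. Per the labels, RNA was isolated with Trizol, while the study's methods name RNeasy columns and a stranded, ribosome-depleting TruSeq kit, and describe EGI-1 alone. The authors deposited raw counts for 60651 genes. The methods name fastp, STAR and RSEM on GRCh38, whereas the submitters' processing notes list fastp, Trim Galore, HISAT2 and featureCounts. Strand setting, treatment of multiply matching reads and gene annotation are not given in the sources used here. Symbols, positions and exon lengths come from GENCODE 44, which matched 60481 genes.

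Genes were tested with the robust quasi-likelihood test of edgeR 4.0.16 in R 4.3.3 after filterByExpr and TMM scaling, with Benjamini-Hochberg adjustment over all genes tested. The 8 EGI-1 libraries, the 4 HUCCT1 libraries and, between the lines, all 12 were fitted in turn, and an adjusted p under 0.05 was a call. Intervals of fold changes are 95% and SE is the log2 fold change divided by the root of F. Bounds use library totals and 3 counts per library and cover counting error only. The fits were also run on data simulated with the same spread for every gene, unlike the data here, and no result rests on that run. Alternatives were other scaling factors, no filter, DESeq2 1.42.0, replicate blocks, fewer libraries and a floor of 10 counts. The chi-square per gene between replicates was 2.56 to 11.1, above sampling noise. The labels do not say that replicates came from separate cultures, so p-values measure the spread between these libraries only. Of the listed pathway genes, up to 3 per list are named, those with the largest change among those that passed in HUCCT1 decitabine or the EGI-1 combination. Promoters shown are, among the members with a window, those with the most calls and those that never passed the filter on low counts. Members and lists were chosen with earlier results of these data known. One biliary epithelium marker and one gene correlated with SFRP1 are not reported here.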

Additional observations from a re-analysis of the deposited data

Results flagged for a closer look

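The decitabine effect differed between the lines, by an interaction term in the 12-library edgeR fit, for 3 of the genes. DKK1 had a difference of -0.997 on the log2 scale (HUCCT1 minus EGI-1), with log2 changes of -0.69 in HUCCT1 and 0.33 in EGI-1. DKK3 had a difference of 2.704, with 2.89 and 0.20, and AXIN2 one of 2.00, with 2.02 and 0.04. Dose, medium and line cannot be told apart in these differences. With 2 libraries per group, single libraries were not screened as outliers.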

How the results depend on the processing

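The numbers of members called in HUCCT1 decitabine (5), between the vehicle groups (5 to 6), in the decitabine effect between lines (3), in the EGI-1 combination against vehicle (2) and against decitabine (1) and beyond the summed effects (0) did not move by over 1.5 times under any alternative run. In EGI-1 decitabine the count of 1 became 0 with the title-number replicate block and with only the 4 libraries compared, and ranged from 0 to 1 with single libraries left out. In talazoparib against vehicle it likewise ranged from 0 to 1. In the combination against talazoparib it became 0 with the title-number replicate block and ranged from 0 to 2. The number of gene and group pairs at the floor was 22 of 60 at 3 counts and 28 at 10 counts.

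With the title-number replicate block, DKK1 kept 0.33 in EGI-1 decitabine (adjusted p = 0.070) and 0.28 in the combination against talazoparib (adjusted p = 0.072). Deviations of same-numbered libraries correlated between -0.27 and 0.20 in EGI-1 and at 0.29 in the 1 HUCCT1 pair of groups, where the block raised the calls over all genes from 7525 to 10136. The labels tie no number to a shared culture, and the pairing in HUCCT1 rests on 1 correlation, so the numbers were not used as pairs. Neither this block nor the one by the series in the library names changed any other member call.

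Values that did not pass changed sign under some settings. With upper-quartile factors RSPO3 was -0.00807 in the combination against vehicle and AXIN2 was -0.12 between the vehicle groups, where that scaling put the median of all genes at -0.13. With the title-number block AXIN2 was -0.000694 there. With single libraries left out, AXIN2 ranged from -0.36 to 0.34 between vehicle groups, from -0.25 to 0.37 after decitabine, from -0.54 to 0.0788 after talazoparib and from -0.20 to 0.42 under the combination. RSPO3 ranged from -0.23 to 0.17 after decitabine and from -0.0861 to 0.13 under the combination, DKK3 from -0.0200 to 0.38 after decitabine, and DKK1 from -0.10 to 0.00815 beyond the summed effects. The cause was not tested. For DKK3 in the combination against talazoparib, leaving out either decitabine library gave a call (adjusted p = 0.043 and 0.042). SFRP2 and WIF1 were tested only without the filter on low counts and did not pass, and depth limits statements on every gene at the floor.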
